A study of Mus musculus with 6 samples.

Results

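The genes described here encode 9 components, regulators and receptors of the complement system, chosen by name: C1qa, C1qb, C1qc, C3, C4b, C3ar1, C5ar1, Cfp and Serping1. All 9 are among the 37475 genes of the deposited table, and all 9 passed the filter on low counts, which left 22114 genes to test. Their levels were measured by RNA sequencing of spinal cord from wild-type mice, 3 days after a contusion at vertebral level T10. After injury, 3 mice received phosphate-buffered saline (PBS), the vehicle, and 3 received syringin, a plant phenylpropanoid glucoside, at 50 mg/kg. Both were injected intraperitoneally once a day for 3 days. Every animal in both groups was injured, and uninjured cord was not analysed here.

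Complement is a cascade of plasma and tissue proteins that tags cells and debris for removal. In the classical pathway C1q, built from A, B and C chains, binds its target and activates the proteases C1r and C1s, which cleave C4 and C2; the products then cleave C3. Properdin stabilises the C3-cleaving enzyme of the alternative pathway, the C1 inhibitor restrains C1r and C1s, and the released fragments C3a and C5a act on receptors of myeloid cells. In the central nervous system microglia and macrophages are the main source of C1q, astrocytes and other cells make C3 and C4, and C1q and C3 are known for tagging synapses for removal.

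The receptor genes C5ar1 and C3ar1 and the properdin gene Cfp rose with syringin, each by a factor between 1.76 and 1.88. None of the 9 genes fell past the threshold. The gene of the C1 inhibitor, Serping1, was lower in all 3 syringin libraries but missed the threshold. The C1q chain genes were high in 2 of the 3 syringin libraries and below every PBS library in the other. C3 and C4b, the central components, had fold changes within their standard errors of 0. Thus 3 of 9 genes passed an adjusted p of 0.05 as higher, in the quasi-likelihood test of edgeR, adjusted by Benjamini and Hochberg's method over all genes tested. The same rule called 5.01% of all genes tested, 1.62% higher and 3.39% lower. The median log2 fold change of the 9 genes was 0.38, beside 0.01 for all genes tested. With so few genes, chosen with earlier results of these libraries known, the counts describe these genes only.

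Several properties of the libraries bear on these values. The deposited counts summed to between 65579117 and 78843034 per library. Multiples of 4 were over-represented among small counts, 4 itself being 1.5 times as frequent as the mean of its neighbours; with all counts divided by 4, edgeR called the same 3 of the 9 genes. The lowest count of any of the 9 genes in a library was 1700, for Cfp in PBS library 1. Transcripts of sensory ganglion neurons, which lie outside the cord, summed to 321, 256 and 123 CPM (the count scaled to library size with edgeR's TMM factors) in PBS library 1 and syringin libraries 1 and 3. In the other libraries they summed to between 26.5 and 56.1 CPM, nearly all of it from Prph and Calca, whose source there was not tested. Another marker of the list, Scn10a, had 45.4, 43.9 and 12.0 CPM in PBS library 1 and syringin libraries 1 and 3. In the other libraries Scn10a was at 0.223 CPM or less. Of the labelled tissue's markers, 7 genes of neurons summed to between 1253 and 3298 CPM and 8 of astrocytes to 5078 CPM or more in every library, so cord RNA was present in each. The calls across all genes rested on single libraries: edgeR called 1108 genes with all 6 and 0 without PBS library 3. Of the 22804 genes tested in edgeR without that library, 3449 had an unadjusted p under 0.05. Without that library DESeq2 called 1346 genes and limma-voom 0. The labels call the samples biological replicates and do not name the animals, so p-values measure the spread between these samples.

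The receptors of the anaphylatoxins, the small fragments C3a and C5a that attract and activate myeloid cells, showed the clearest separation. C5ar1 (ENSMUSG00000049130, chromosome 7, 15980668 to 15993465, minus strand in the deposited table, whose genome build is uncertain) encodes the main C5a receptor. It had 39.9, 42.4 and 40.9 CPM in the PBS libraries and 71.8, 82.9 and 77.0 CPM in the syringin libraries. The groups did not overlap, and the gap between them was wider than the range within either. The means were 41.1 ± 1.29 and 77.2 ± 5.55 CPM (SD, n = 3 in each group), a log2 fold change of 0.91 ± 0.09 (SE). Its adjusted p was 0.0101 in edgeR's test, the 14th smallest p of the 22114 genes. With each library left out in turn the log2 fold change of C5ar1 stayed between 0.86 and 0.96. The call was lost only without PBS library 3 (adjusted p = 0.0959 in edgeR, 0.0827 in limma-voom and 1.83e-07 in DESeq2).

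C3ar1 (ENSMUSG00000040552, chromosome 6, 122824097 to 122833120, minus strand) encodes the C3a receptor. It had 116, 114 and 107 CPM in the PBS libraries and 160, 255 and 179 CPM in the syringin libraries. The groups did not overlap, but syringin library 2 stood well above the other two of its group. The means were 113 ± 4.48 and 198 ± 50.2 CPM, a log2 fold change of 0.82 ± 0.17 (edgeR adjusted p = 0.0379). The call for C3ar1 was lost without PBS library 1, 2 or 3 (edgeR adjusted p = 0.0951, 0.116 and 0.188) and without syringin library 3 (0.0804). Whether the receptor genes differed in their response was tested on the log2 ratio of their counts within each library. With PBS the ratio of C5ar1 to C3ar1 was -1.54, -1.43 and -1.39, and with syringin it was -1.16, -1.62 and -1.22, so the groups overlapped. The difference of 0.12 gave an exact two-sided permutation p of 0.5, and 0.75 adjusted over the 3 ratios tested. With 1 library left out the difference lay between 0.04 and 0.27. With 3 libraries against 3 the smallest p that this test can give is 0.1.

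Properdin, which lengthens the life of the alternative pathway's C3-cleaving enzyme, is encoded by Cfp (ENSMUSG00000001128, chromosome X, 20791693 to 20797794, minus strand), a gene of monocytes, macrophages and neutrophils. Cfp had 22.5, 32.1 and 32.1 CPM with PBS and 42.6, 64.1 and 48.5 CPM with syringin. The lowest PBS library was the first and the highest syringin library the second, and the groups did not overlap. The means were 28.9 ± 5.54 and 51.7 ± 11.1 CPM, a log2 fold change of 0.84 ± 0.19 (edgeR adjusted p = 0.0483). This call lay at the threshold: it was lost in edgeR without any single library other than syringin library 1 (adjusted p between 0.104 and 0.171), in limma-voom (0.0523) and in edgeR without robust estimation (0.0504). It was also lost after a correction for gene length and base composition within each library (0.0541), and in limma on FPKM values, which are scaled for transcript length and library size (0.0595).

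**Figure D1:**
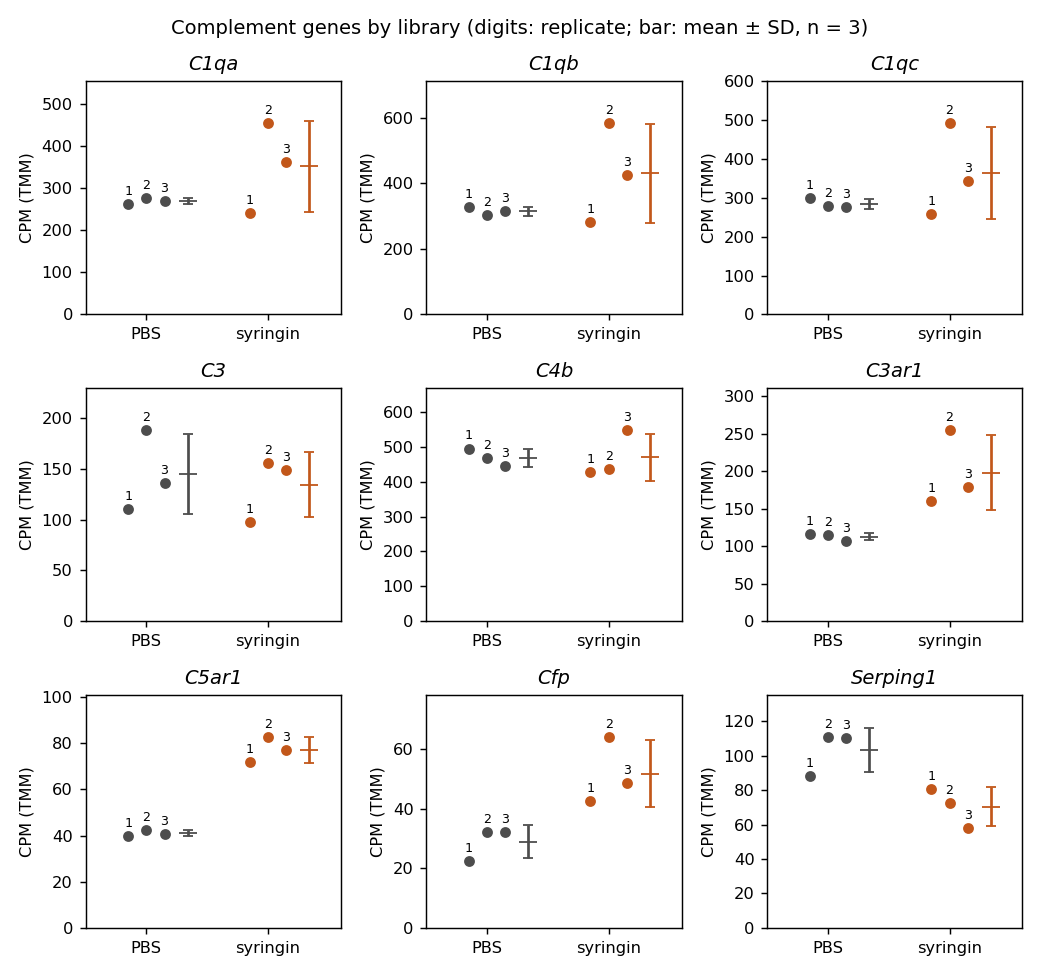
TMM-scaled CPM (y axis, from 0) of the 9 complement genes in each PBS and syringin library, with replicate numbers beside the points and the mean ± SD (n = 3) at the right of each group. The groups separate for C5ar1, C3ar1, Cfp and Serping1, while syringin library 1 lies below all PBS libraries for the C1q chains.

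The sequences before the transcription starts of these 3 risen genes are shown because the genes moved together. RefSeq (GRCm38.p6) starts were matched by symbol for 6 of the 9 genes. Each line gives the 100 bases before the start, 5′ to 3′ on the gene's own strand, with every GGAA or its reverse complement TTCC in capitals. That core is shared by the sites of ETS factors, among them PU.1, a regulator of myeloid genes.
C5ar1, chr7:16259339-16259438, minus strand: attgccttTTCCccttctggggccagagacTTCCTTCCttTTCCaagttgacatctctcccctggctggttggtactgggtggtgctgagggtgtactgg
C3ar1, chr6:122856158-122856257, minus strand: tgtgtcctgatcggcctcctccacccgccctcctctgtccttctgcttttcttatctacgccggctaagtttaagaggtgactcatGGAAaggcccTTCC
Cfp, chrX:20931556-20931655, minus strand: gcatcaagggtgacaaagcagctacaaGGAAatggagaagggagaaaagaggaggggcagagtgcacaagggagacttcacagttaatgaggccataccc
The core occurred 4 times before C5ar1, 2 times before C3ar1 and 1 time before Cfp. It also occurred 3 times before C1qb, and 2 times each before C1qc and C3, which were not called. On either strand it was found in 66.8% of the 32851 windows of this length in the table, so its presence sets none of these genes apart. The longer motif GAGGAA, searched on both strands of the 250 bases before each start, was present before C1qb and C1qc and absent before the 3 risen genes, and 23.3% of all promoters held it. The coordinates of these sequences belong to GRCm38.p6 and cannot be set beside those of the deposited table.

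The chains of C1q, the recognition protein of the classical pathway, are encoded by 3 genes within 18.7 kb of chromosome 4 (136607440 to 136626114 in the deposited table). They had the highest levels per transcript length of the 9 genes. In the PBS libraries C1qb had 269 ± 12.0, C1qa 241 ± 5.71 and C1qc 137 ± 6.17 FPKM (SD, n = 3), and these levels did not overlap. The FPKM ratio of C1qb to C1qa lay between 1.04 and 1.23 in the 6 libraries, and that of C1qc to C1qa between 0.511 and 0.613, so the chains kept nearly the same proportions in every library.

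C1qa had 263, 277 and 269 CPM in the PBS libraries and 240, 454 and 361 CPM in the syringin libraries. C1qb had 328, 302 and 314 against 281, 584 and 426 CPM. C1qc had 299, 279 and 276 against 258, 493 and 342 CPM. For each chain the lowest of the 6 libraries and the 2 highest were all syringin libraries, so the groups overlapped. The log2 fold changes were 0.38 ± 0.20 for C1qa, 0.45 ± 0.23 for C1qb and 0.36 ± 0.21 for C1qc (edgeR adjusted p = 0.304, 0.284 and 0.353). Syringin library 1 decided whether these genes were called. Without it C1qa and C1qb passed at 0.59 ± 0.12 and 0.68 ± 0.14 (edgeR adjusted p = 0.0264 and 0.03) and C1qc did not, at 0.55 (0.0692). In that fit edgeR called 6 of the 9 genes, 5 higher and 1 lower, and 8.55% of all genes tested, 3.57% higher and 4.97% lower. Without syringin library 2 the values of C1qa, C1qb and C1qc were 0.16, 0.17 and 0.08.

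C5ar1 was set against the C1q chains in the same way, by the log2 ratio of its count to the mean of the 3 chains within each library. With PBS the ratio was -2.89, -2.75 and -2.81, and with syringin it was -1.85, -2.62 and -2.28. The groups did not overlap, and the difference was 0.57, which became 0.37 without syringin library 1 and 0.75 without syringin library 2. The exact two-sided permutation p was 0.1, the smallest this design allows, and 0.3 after adjustment over the 3 ratios.

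C4 and C3 are related proteins that attach covalently to surfaces once cleaved. C4b (ENSMUSG00000073418, chromosome 17, 34947354 to 34962856, minus strand) encodes mouse C4. It had 496, 469 and 444 CPM with PBS and 428, 436 and 549 CPM with syringin. The highest and the lowest of the 6 values were both in the syringin group. The means were 469 ± 25.8 and 471 ± 67.9 CPM, with a log2 fold change of 0.0039 ± 0.12 (edgeR adjusted p = 0.989). The near-identical paralogue C4a had 6.75 ± 0.649 and 7.96 ± 2.13 CPM. Their values are uncertain, since no source used here states how shared reads were assigned to the copies.

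C3 (ENSMUSG00000024164, chromosome 17, 57510970 to 57535136, minus strand) encodes the component on which the pathways converge. It had 110, 189 and 136 CPM with PBS and 97.5, 156 and 149 CPM with syringin. The first library of each group was its lowest, and the groups overlapped across most of their range. C3 had a log2 fold change of -0.11 ± 0.23 (edgeR adjusted p = 0.826), and its sign changed without PBS library 2 (0.12) and without syringin library 1 (0.07). The log2 ratio of C3 to C4b was -1.73 ± 0.43 with PBS and -1.83 ± 0.33 with syringin (SD, n = 3), a difference of -0.10 with an exact permutation p of 0.8 (0.8 adjusted).

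Serping1 (ENSMUSG00000023224, chromosome 2, 84595731 to 84605788, minus strand) encodes the C1 inhibitor, a serpin that inactivates C1r and C1s. It had 88.6, 111 and 110 CPM in the PBS libraries and 80.7, 72.4 and 58.3 CPM in the syringin libraries. The groups did not overlap, but PBS library 1 and syringin library 1 lay close to each other. Serping1 was the only gene of the 9 with every syringin value below every PBS value. Its means were 103 ± 12.8 and 70.5 ± 11.3 CPM, with a log2 fold change of -0.55 ± 0.14. In edgeR it missed the threshold (adjusted p = 0.0673; unadjusted p = 0.00477). It passed in DESeq2 (adjusted p = 0.0077), which called 15.3% of the genes it tested, 6.3% higher and 8.98% lower. It also passed in edgeR without syringin library 1 (0.0337).

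Counted without a model, 3 of the 9 genes had non-overlapping groups with syringin higher and 1 with syringin lower. Over all genes tested the shares were 14.7% and 15.3%, and 30% in either direction. Ordered by FPKM in the PBS libraries, C4b followed the C1q chains at 76.5 ± 4.26, then Serping1 at 41.2 ± 5.05 and C3 at 26.2 ± 7.11. C3ar1 at 24.3 ± 0.96 overlapped C3, and C5ar1 at 14.8 ± 0.426 overlapped Cfp at 15.4 ± 2.94. In the syringin libraries C3ar1, at 41.9 ± 9.80 FPKM, lay above Serping1 (27.7 ± 4.95), C5ar1 (27.4 ± 1.37), Cfp (27.1 ± 5.27) and C3 (23.7 ± 5.18). Each of these last 4 overlapped its neighbour in that order.

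**Figure D2:**
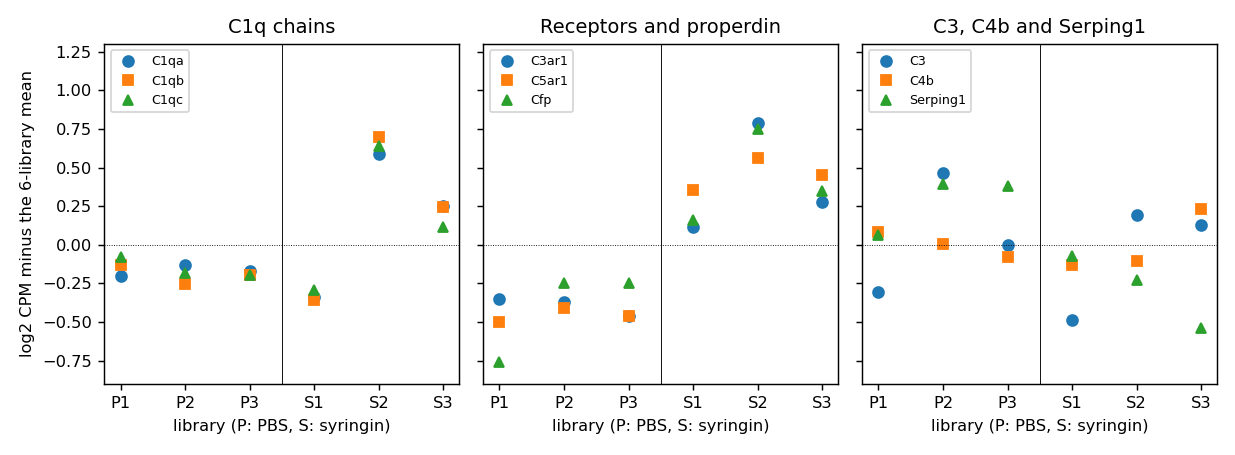
Level of each gene in each library (y axis: log2 CPM minus the mean over the 6 libraries; x axis: PBS libraries P1 to P3 and syringin libraries S1 to S3). The C1q chains lie close together and are lowest in S1; the receptors and properdin are above 0 in all syringin libraries; Serping1 is lowest in S3.

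The profiles of the genes across the 6 libraries were compared by the root mean square difference of log2 CPM centred over the libraries. The C1q chains differed from each other by 0.074 to 0.085, the smallest values among the 9 genes. C5ar1, C3ar1 and Cfp followed, at 0.164 to 0.198 from each other, while C1qa lay 0.261 from C3ar1 and 0.356 from C5ar1. Serping1 was the farthest from C5ar1, at 0.757. The closest genes were sought among 14660 other tested genes with a mean of at least 1 CPM and no clone or predicted name. Those closest to C1qa were Glmp, Pld3, Tnfsfm13, Npc2 and Laptm5, at 0.0517 to 0.0661. Those closest to C5ar1 were Igf2bp2, Emp1, Tgif1, Itgb7 and Nod2, at 0.0618 to 0.097. Those closest to C3 were Zfp493, Higd1b, Cutal, Dock6 and Sema3a, at 0.0489 to 0.104.

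Marker lists of myeloid cells went in different directions in the same libraries. All marker lists were chosen with earlier results of these data known, so counts of their members describe the listed genes only. Of the 12 markers of monocytes and macrophages entering the cord, 3 rose (1.62% of all genes tested did), and the log2 fold changes of all 12 were positive (median 0.90). Their summed level was 2313 to 3079 CPM in the PBS and 3167 to 6623 CPM in the syringin libraries, led by Fn1 and Lyz2, and none of them was at 0 in a library. Of 9 microglial markers none passed the test, 7 had negative values (median -0.29), and their sum was 1276 to 1496 against 941 to 1562 CPM, lowest in syringin library 1. Per 1000 CPM of summed macrophage markers, C5ar1 had 17.2, 15.6 and 13.3 CPM with PBS and 22.7, 12.5 and 18.4 CPM with syringin. On that scale, chosen after the values were seen, the groups also overlapped for C3ar1 and Cfp. The other 6 genes were lower in every syringin library than in every PBS library, but by little for C1qa and C1qb. C1qa had 87.4 CPM in PBS library 3 and 86.3 CPM in syringin library 3, and C1qb had 102 CPM in both, equal when rounded. Per 1000 CPM of summed microglial markers C1qa had 206, 207 and 180 CPM with PBS and 255, 291 and 269 CPM with syringin, and C1qb, C1qc, C3ar1, C5ar1 and Cfp were likewise higher without overlap. The part of these cells in the changes was not tested, and in bulk tissue fewer cells of a type and less RNA per cell cannot be told apart. Of 8 neutrophil markers 1 rose and 1 fell (1.62% and 3.39% of all genes tested), with sums of 81.2 to 128 against 64.4 to 163 CPM, and the defining marker Ly6g was at 0.34 CPM or less in every library.

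The rest of the pathway was followed in 47 further genes, of which 46 are in the table and 38 passed the filter on low counts. Of those 38, 1 rose and 2 fell (1.62% and 3.39% of all genes tested), and their median log2 fold change was -0.23. Those that rose or fell were a receptor and 2 membrane proteins with complement-control domains.

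Among the proteases and lectins that start the cascade, none of 11 tested genes passed. The classical pathway's C2 had 7.83 ± 1.67 CPM with PBS and 3.60 ± 1.46 with syringin (log2 fold change -1.12 ± 0.33, edgeR adjusted p = 0.0972). C2 overlaps Zbtb12 on the opposite strand over 17385 bases, and no source used here states whether counting used strand. The C1r and C1s genes C1ra, C1rb and C1s1 had values of -0.30 ± 0.17, -0.96 ± 0.28 and -0.54 ± 0.17 (edgeR adjusted p = 0.335, 0.0915 and 0.103). The other C1s gene, C1s2, was scarce, with 0.479 ± 0.055 and 0.523 ± 0.25 CPM and a value of 0.13 ± 0.48 (adjusted p = 0.906). C1ra and C1rb, and C1s1 and C1s2, are near-identical copies whose reads may be split. Of the 11 genes, 5 had every syringin value below every PBS value, against 15.3% of all genes tested. C2, C1ra, C1rb and C1s1 are named because they were among them. C1ra met this only narrowly, at 16.93 CPM in PBS library 2 and 16.90 CPM in syringin library 2. The remaining gene, Fcnb, had 4, 0 and 0 counts in the syringin libraries. DESeq2 called C2, C1rb and C1s1 lower, as it did Serping1. The C1q chain genes, whose products bind these proteases, had positive values.

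Factor B, the alternative pathway's protease (Cfb), had 11.2 ± 0.822 CPM with PBS and 10.9 ± 2.72 CPM with syringin. Transcripts of the terminal components were scarcer. The C5 gene, Hc, whose product releases the ligand of C5ar1, had 0.411 ± 0.0391 and 0.487 ± 0.414 CPM. None of the 5 tested genes among C4a and the terminal components passed. C8a had 0 counts in 5 of the 6 libraries and C8b in 4; from counting error alone, up to 3 fragments could have gone unseen where none was counted. Of 6 hepatocyte markers, the cell type that supplies most plasma complement, 4 were too low to be tested, and the list summed to between 0.282 and 2.72 CPM.

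Regulators were mostly lower without passing. Clusterin (Clu), which binds terminal complexes, was the most abundant of the 46 genes by FPKM, at 351 ± 56.0 with PBS and 274 ± 28.2 with syringin. Its log2 fold change was -0.33 ± 0.14 (edgeR adjusted p = 0.2). Vitronectin (Vtn), another inhibitor of the terminal complex, had 75.2, 127 and 116 against 60.2, 73.3 and 65.5 CPM (-0.68 ± 0.19, edgeR adjusted p = 0.0796). The groups of Vtn did not overlap. Vtn missed the threshold in edgeR with all libraries, and passed without PBS library 1 (-0.88, edgeR adjusted p = 0.0366), in DESeq2 (0.00452), with a term for the ganglion transcripts (edgeR, 0.0241) and with a replicate block (edgeR, 0.0195). Astrocytes, which express Clu, had lower markers in the same libraries: all 8 had negative log2 fold changes (median -0.53), 2 of the 8 fell (Slc1a2 and Gjb6; 3.39% of all genes tested were called lower), and their sums were 7523 to 9056 CPM with PBS and 5078 to 7019 CPM with syringin. Their part in the values of Clu, Vtn, Serping1, C3 and C4b was not tested.

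Of 9 tested membrane regulators 2 fell (3.39% of all genes tested did), both genes with CUB or sushi domains expressed by neural cells. Susd4 (ENSMUSG00000038576, chromosome 1, 182591425 to 182722797) had 43.5, 39.3 and 48.4 CPM with PBS and 20.3, 20.7 and 27.8 CPM with syringin (log2 fold change -0.93 ± 0.15, edgeR adjusted p = 0.0204). Csmd3 (ENSMUSG00000022311, chromosome 15, 47444033 to 48655459) had 18.7, 16.9 and 22.0 against 9.89, 8.89 and 11.02 CPM (-0.95 ± 0.15, adjusted p = 0.02). Both sets of values were well separated, the syringin levels being a little above 0.5 times the PBS levels (0.525 and 0.517). Their relative Csmd2 had -0.28 ± 0.12 (adjusted p = 0.197) with non-overlapping groups. Of 7 neuronal markers 4 fell in the same libraries (3.39% of all genes tested did), from sums of 2604 to 3298 CPM down to 1253 to 1951 CPM, and their part in these changes was not tested. Without PBS library 1, 2 or 3 neither Susd4 nor Csmd3 passed in edgeR (adjusted p from 0.0506 to 0.129), and Susd4 was also lost without syringin library 2 (0.0517).

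Among 7 other receptors Cd93, a C-type lectin-like protein once described as a C1q receptor and expressed by endothelium and myeloid cells, rose. It had 124, 139 and 108 CPM with PBS and 170, 256 and 204 CPM with syringin (0.76 ± 0.16, edgeR adjusted p = 0.0413). The Cd93 call was lost without PBS library 1, 2 or 3 (adjusted p = 0.108, 0.0898 and 0.197) and without syringin library 2 or 3 (0.0788 and 0.104). Of 7 endothelial markers 6 had positive values and 1 rose (1.62% of all genes tested did): Pecam1 had 101 ± 11.8 and 151 ± 5.22 CPM (edgeR adjusted p = 0.0245). The negative marker, Slco1a4, had 91.2 ± 4.62 and 60.3 ± 18.1 CPM without overlap (-0.60 ± 0.20, edgeR adjusted p = 0.121). The 7 markers summed to 546 to 615 CPM with PBS and 613 to 722 CPM with syringin, and their part in the rise of Cd93 was not tested. Complement receptor 3, which binds a C3 cleavage product on myeloid cells, consists of the products of Itgam and Itgb2. Itgb2 had 142 ± 3.89 and 223 ± 63.3 CPM without overlap (0.65 ± 0.18, adjusted p = 0.0809). Itgb2 passed in DESeq2 (adjusted p = 0.00535), in edgeR with the ganglion term (0.0179) or the replicate block (0.0375), and without syringin library 1 (0.81, 0.0219); without syringin library 2 its value was 0.41 (0.097). Itgam overlapped between the groups, at 227 ± 20.7 and 286 ± 77.3 CPM (0.33 ± 0.19, adjusted p = 0.331).

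**Figure D3:**
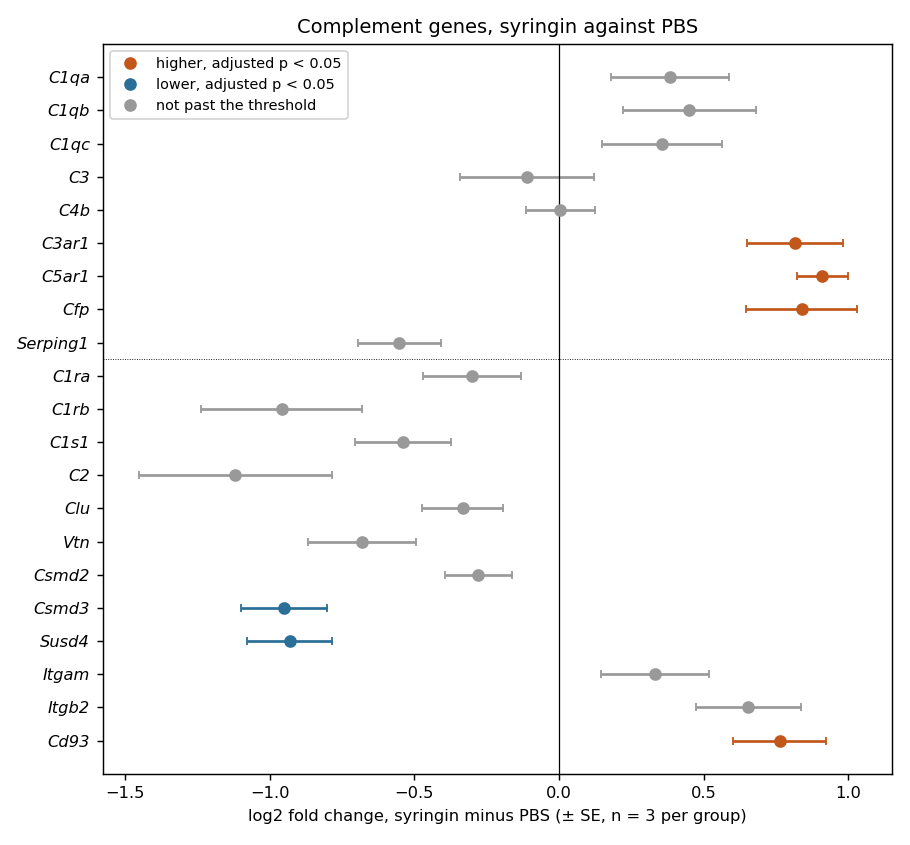
Log2 fold change, syringin minus PBS, ± SE (x axis) of the 9 complement genes (above the dotted line) and 12 further genes of the pathway. Coloured points passed an adjusted p of 0.05 in edgeR: C3ar1, C5ar1, Cfp and Cd93 higher, and Csmd3 and Susd4 lower.

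**Figure D4:**
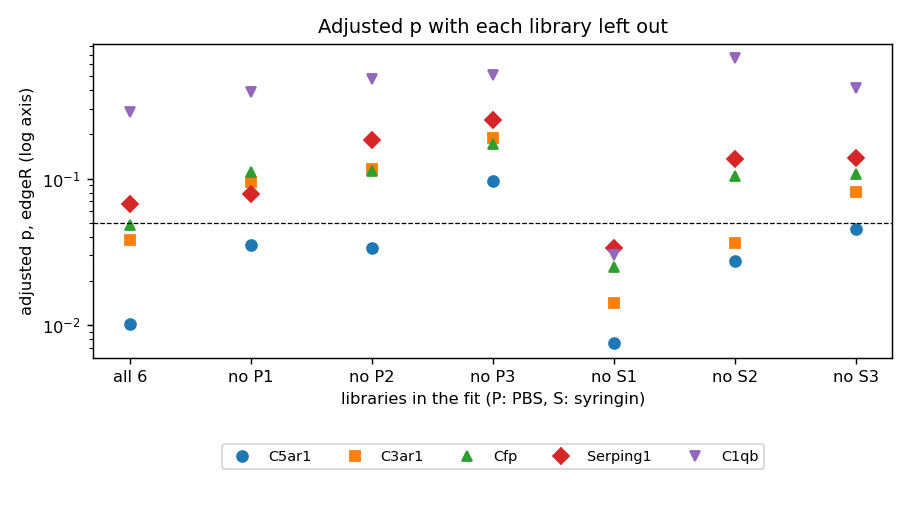
Adjusted p of 5 genes (y axis, log scale; dashed line: 0.05) in edgeR with all 6 libraries and with each PBS (P) or syringin (S) library left out. C5ar1 passes in every fit but the one without P3, and C1qb and Serping1 pass only without S1.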

How the data were processed

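Sample titles gave the treatment groups. Polyadenylated RNA, extracted with TRIzol, went into stranded libraries, per the labels' protocols. The submitters' processing notes name HISAT2, StringTie and the builds GRCm38 and mm10. GENCODE M21, an annotation of GRCm38, shared 34804 gene IDs with the deposited table; 717 of them, and none of the 9 genes, had the same start in both, so the build of its coordinates is uncertain. The authors deposited estimated counts, which are whole numbers, and FPKM values, scaled by them for transcript length and library size.

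Counts were scaled by TMM, filtered with filterByExpr (minimum count 10, minimum total 15) and fitted with edgeR 4.0.16's robust quasi-likelihood model under R 4.3.3. The fit covered the whole table and held no term but treatment. SE was obtained by dividing the absolute log2 fold change by the root of the F statistic, and p-values are two-sided. limma 3.58.1 and DESeq2 1.42.0 were alternatives. The fit was tested on simulated data. Genes outside the 9 are named where they were called, were among the 5 highest by FPKM, or had non-overlapping groups at a mean of 1 CPM or more; a few more are named beside them after their values were seen. A gene that met this rule is not reported here. The 9 genes and all lists were chosen with earlier results of these data known.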

Additional observations from a re-analysis of the deposited data

How the results depend on the processing

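All values compare syringin with PBS. Over the 22 other settings the log2 fold change of C5ar1 lay between 0.86 and 0.97 and kept its call in 20, C3ar1 lay between 0.59 and 1.01 and kept it in 17, and Cfp between 0.66 and 0.96 and kept it in 12. Serping1 lay between -0.66 and -0.44 and passed in 2. The count of complement genes called, 3 of 9 with all libraries in edgeR, ranged from 0 to 6 with 1 library left out, in fits that called 0% to 8.55% of all genes, and was 0 in limma-voom without PBS library 3 (0% of all genes called there) and 3 in DESeq2 without it (8.46% of all genes called). In edgeR without PBS library 3, 4 of the 9 genes had an unadjusted p under 0.05, as did 3449 of all 22804 genes tested. The 1108 genes called over the table became 2799 in DESeq2, 707 in limma on log2(FPKM + 0.1), 2563 with the mean level of sensory ganglion markers as a further term, 0 in limma-voom without PBS library 3, and 0 to 1944 with 1 library left out. The 3 further complement genes called became 9 in DESeq2 (15.3% of all genes called), 6 with the ganglion term (11.6%) and 0 to 7 with 1 library left out. The correction for transcript length and GC content, added after the data were seen, moved the calls from 359 higher and 749 lower to 562 higher and 576 lower; it called C5ar1 and C3ar1 but not Cfp.

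Replicate numbers were shared between the groups, but same-numbered libraries deviated together only in part (r = 0.292, 0.123 and 0.0522). The libraries numbered 1 had the highest r of all pairs, while PBS library 3 correlated best with syringin library 2 (r = 0.135). Whether same-numbered libraries were paired or shared a batch was not tested, and correlations of so few libraries cannot decide it. With the replicate number as a block, 2557 genes, 3 of the 9 complement genes and 7 further complement genes were called (11.6% of all genes called). For the ratios the block leaves the differences unchanged by arithmetic, so they are no further check. They were 0.12 for C5ar1 to C3ar1, 0.57 for C5ar1 to C1q and -0.10 for C3 to C4b. Exact sign-flip tests on the same-numbered differences gave p = 0.75, 0.25 and 0.5.

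C4b, close to 0, changed sign under upper quartile scaling (-0.0017), no composition factors (-0.030), limma-voom (-0.0035), a filter of 1 CPM (-0.0066), the replicate block (-0.0044), counts divided by 4 (-0.0027), FPKM (-0.028), the ganglion covariate (-0.014), and without PBS library 3 in DESeq2 (-0.042) and limma-voom (-0.043), and lay between -0.13 and 0.065 with 1 library left out. C3 changed sign without PBS library 2 (0.12) or syringin library 1 (0.07), with a range of -0.27 to 0.12 with 1 library left out; the ratio of C3 to C4b changed sign in the same fits (0.10 and 0.05), whose leave-one-out range was -0.32 to 0.10. Leaving out haemoglobin and mitochondrial genes from the library totals changed no call, since the TMM factors offset a change of the totals. That setting is therefore no further check, though it counts among the 22. Genes at a few counts, such as C8a, are limited by depth.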

Other observations

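Ficolin B (Fcnb), a lectin of neutrophils and their precursors that can start the lectin pathway, was singled out after its values were seen. It had 0.331, 0.342 and 0.191 CPM in the PBS libraries and 0.0493, 0 and 0 CPM in the syringin libraries. Its total over the 6 libraries was 65 counts. It missed the threshold in edgeR (adjusted p = 0.0764) and was not called in DESeq2. It passed in limma-voom, in limma on log2(FPKM + 0.1) and in edgeR without syringin library 1. The granule gene Mpo, also of immature neutrophils, fell from 1.47, 2.76 and 1.71 to 0.58, 0.454 and 0.456 CPM (edgeR adjusted p = 0.0237). Mmp8, of the same neutrophil list, went the other way, from 9.83 ± 0.447 to 17.1 ± 3.75 CPM (edgeR adjusted p = 0.0462). Of the 8 neutrophil markers 5 had positive and 3 negative log2 fold changes.

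Itgax, the alpha chain of complement receptor 4, was also singled out after its values were seen. It had 5.31, 7.03 and 10.02 CPM with PBS and 8.75, 27.2 and 18.4 CPM with syringin, a log2 fold change of 1.28 ± 0.40 that missed the threshold (edgeR adjusted p = 0.107) with overlapping groups. Itgax passed in DESeq2 with all libraries and without PBS library 3, and in edgeR with a replicate block, with a ganglion term and without syringin library 1.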
